A study of Mus musculus with 8 samples.

Results

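The 9 genes described here carry the neuregulin, ErbB and endothelin signals of the embryonic heart. They are the ligand genes Nrg1, Hbegf and Edn1, the converting enzyme gene Ece1, and the receptor genes Erbb2, Erbb3, Erbb4, Ednra and Ednrb. They were chosen by symbol, with earlier results of these data known, and are 9 of the 20701 gene symbols in the count table. Where a symbol had several transcripts, the one most counted on average was used. All 9 passed the filter on low counts, beside 13769 genes in all. RNA came from tissue of C57BL/6 mouse embryos at stage E10.5, cut out to hold outflow tract plus right ventricle (OFT/RV), and each library was made from a single embryo. Of the 8 libraries, 4 came from control embryos labelled wild type (CTRL) and 4 from embryos labelled Isl1 hypomorph (Isl1_hypo), which carried Isl1-f;neo/f;neo, alleles that lower Isl1 and are not restricted to one cell type. Isl1 is a LIM-homeodomain transcription factor of the second heart field, the progenitor population that builds the outflow tract and right ventricle. Both groups share stage, strain and dissection.

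Neuregulin 1 is made by the endocardium as a membrane-bound precursor, is cut free by metalloproteases of the ADAM family, and acts on the underlying myocardium through Erbb4 paired with Erbb2, a route needed for trabeculation. Erbb3 lacks effective kinase activity, pairs with Erbb2, and is used by cushion mesenchyme and neural crest derivatives, while Hbegf is a ligand of Erbb4 and the EGF receptor that shapes the valves. Endothelin 1 is made as a precursor that furin and then endothelin converting enzyme 1 cleave to the active peptide. The peptide acts on Ednra in neural crest that patterns the pharyngeal arches and the outflow tract, and on Ednrb, the receptor better known from melanocyte and enteric crest.

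The libraries held 18422245 to 46678973 counts with 1 transcript per gene, and the Isl1_hypo libraries reached at most 33050298. Expression is given in CPM, counts scaled to a common library size of 1000000 reads after correction for library composition by the TMM method. Isl1 itself stood at 29.6, 61.5, 46.2 and 51.3 CPM across CTRL replicates 1 to 4. The Isl1_hypo replicates 1 to 4 held 12.7, 6.86, 7.71 and 11.4 CPM. It fell to 20.5% of the CTRL mean (adjusted p = 0.0077, quasi-likelihood test of edgeR), so the library labels and the targeted gene matched in every library. Contractile genes marked the tissue as heart, without telling outflow tract and right ventricle from its other parts. The summed level over 8 myocardial markers was 39020 to 47810 CPM in CTRL and 41490 to 49410 CPM in Isl1_hypo. Actc1 made up the largest share of these sums, and 3 of the 8 markers were lower at an unadjusted p under 0.05, beside 6.17% of all genes, with log2 fold changes of −0.90 for Ttn, −0.49 for Myh7 and −0.31 for Myh6 (adjusted p = 0.173, 0.165 and 0.391, edgeR). The groups did not overlap for Ttn and Myh7, and the part of these markers in the results was not tested. Isl1_hypo replicate 3 stood apart from the other libraries, at 72 on the first principal component of the 1000 most variable genes against −17.7 to 3.97 for the rest. Isl1_hypo replicate 1 held 15.3 CPM of the epithelial gene Cdh1 and 38.5 CPM of Cldn6, beside at most 0.311 and 0.199 CPM in the other libraries. The 13 red cell markers listed all had positive log2 fold changes, with sums of 2053 to 12030 CPM in CTRL and 12010 to 25790 CPM in Isl1_hypo. Some globin genes of this list have identical (Hba-a1, Hba-a2) or nearly identical counts (Hbb-b2 with Hbb-bt, Hbb-bs with Hbb-b1), so that the same reads enter the count of markers and the sums more than once. In such bulk tissue, fewer cells of a type and less RNA per cell cannot be told apart.

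Among the 9 genes none reached an adjusted p under 0.05 in edgeR, where 0.269% of all tested genes did (37 of 13769). With 1 library left out that count over all genes ranged from 4, without CTRL replicate 3, to 48, without Isl1_hypo replicate 3, and was 5, 8, 11 and 12 without CTRL replicate 2, CTRL replicate 1, Isl1_hypo replicate 4 and Isl1_hypo replicate 2. At an unadjusted p under 0.05, 4 were lower in Isl1_hypo (Ece1, Edn1, Erbb3 and Hbegf), beside 6.17% of all genes that were lower at this limit. Only Ednrb was higher at the same limit, beside 5.69% of all genes. The fitted log2 fold change was negative for 7 of the 9 genes and for 49.1% of all genes, and its median was −0.33 over the 9 genes and 0.01 over all genes. For Ece1 and Hbegf every Isl1_hypo library lay below every CTRL library, a pattern shown by 4.44% of all genes. Without CTRL replicate 4 the groups were apart for 4 of the 9 genes, lower for Ece1, Edn1 and Hbegf, beside 6.18% of all genes in that fit, and higher for Ednrb, beside 5.84%. DESeq2 called 1 of the 9, Ece1, with an adjusted p of 0.0284, and it called 2.34% of the genes to which it gave an adjusted p. Leaving out CTRL replicate 1 or CTRL replicate 3 lowered the count at an unadjusted p under 0.05 from 5 to 2, and leaving out Isl1_hypo replicate 1 lowered it to 3. Leaving out Isl1_hypo replicates 1 and 3 together also lowered it to 2. None remained with the globin level of each library as a covariate, a level that was itself higher in Isl1_hypo. The share of all genes at an unadjusted p under 0.05 was not counted in these fits.

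**Figure D1:**
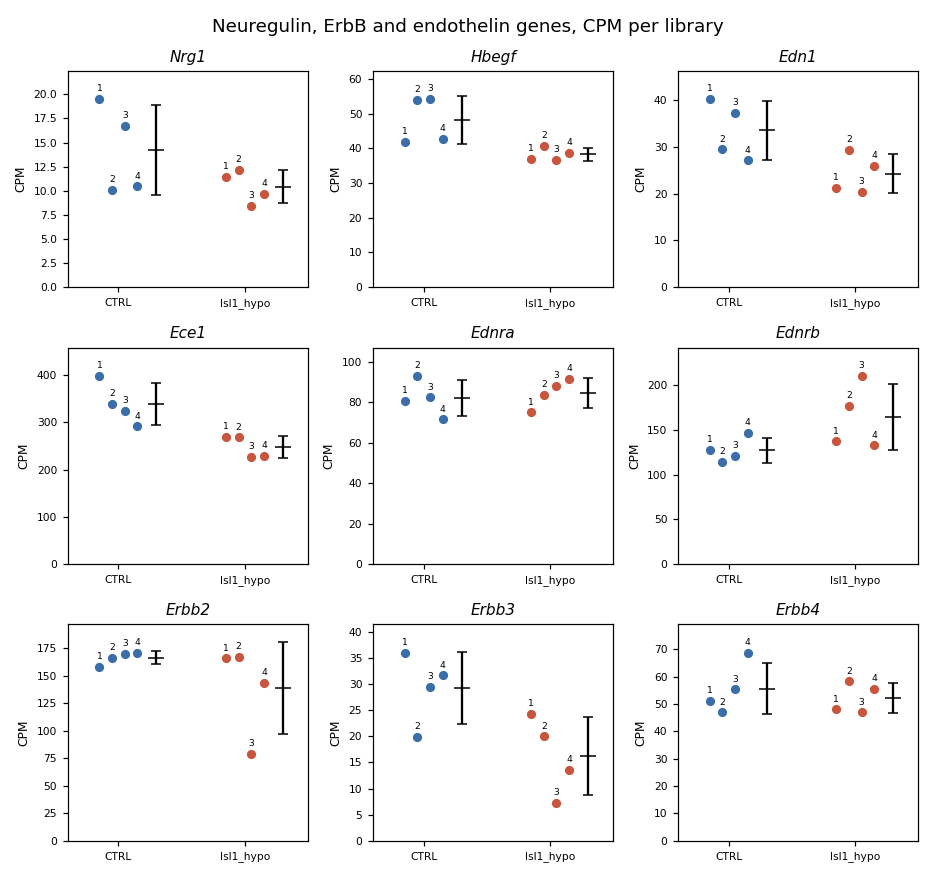
CPM of the 9 genes in each library (vertical axis, starting at 0), with CTRL in blue, Isl1_hypo in red, replicate numbers above the points, and the mean with its SD over the 4 libraries of a group as a black bar. The groups are apart for Ece1 and Hbegf, and Isl1_hypo replicate 3 is the lowest point for Erbb2, at 78.8 CPM, and for Erbb3, at 7.24 CPM.

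The endothelin ligand and its converting enzyme were both lower in Isl1_hypo without passing the adjusted threshold. Edn1, on the plus strand of chromosome 13 in mm9 (42396639 to 42403358), had 40.3, 29.5, 37.3 and 27.2 CPM across CTRL replicates 1 to 4. Across the Isl1_hypo replicates it had 21.2, 29.4, 20.5 and 26.0 CPM. The groups touched, since Isl1_hypo replicate 2 reached the level of CTRL replicate 2 and lay above CTRL replicate 4. The mean was 33.6 ± 6.24 CPM in CTRL and 24.3 ± 4.20 CPM in Isl1_hypo (SD, n = 4). On the log2 scale the groups differed by −0.47 with a standard error (SE) of 0.17 (unadjusted p = 0.0191, adjusted p = 0.312, edgeR). The sign was negative under all 17 alternative analyses, while the unadjusted p stayed under 0.05 in 5 of the 8 fits that left out 1 library. With the globin covariate the log2 difference was −0.17 (unadjusted p = 0.530, edgeR).

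Ece1, which releases active endothelin from its precursor, gave the lowest p of the 9 genes. It lies on the plus strand of chromosome 4 (137418152 to 137521144). CTRL replicates 1 to 4 held 399, 339, 324 and 291 CPM, and Isl1_hypo replicates 1 to 4 held 269, 268, 228 and 230 CPM. The lowest CTRL library was above the highest Isl1_hypo library. The mean was 338.5 ± 44.9 CPM in CTRL and 249 ± 23.1 CPM in Isl1_hypo, or 73.5% of the CTRL level, and the log2 fold change was −0.44 (SE 0.12, unadjusted p = 0.00281, adjusted p = 0.182, edgeR). With each library left out in turn the log2 fold change stayed between −0.51 and −0.36 with an unadjusted p under 0.05 in 8 of 8 fits. It was −0.17 with the globin covariate.

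The sequences before the starts of the endothelin genes that differed at an unadjusted p under 0.05 are shown because Edn1 and Ece1 were lower together in these libraries while Ednrb was higher. Each is the 250 bases before the gene start in the GENCODE annotation of mm9, 5′ to 3′ on the strand of the gene, and contains no exon of that annotation. A RefSeq table of a later build gives other starts for Edn1 and Ednrb and further starts for Ece1, and the windows and their matches depend on the start taken. Edn1 is from chr13:42396389-42396638 (plus strand), Ece1 from chr4:137417902-137418151 (plus strand) and Ednrb from chr14:104243391-104243640 (minus strand). Capitals mark TAAT or its reverse complement ATTA, the core that LIM-homeodomain proteins such as Isl1 recognise, searched on both strands.
Edn1: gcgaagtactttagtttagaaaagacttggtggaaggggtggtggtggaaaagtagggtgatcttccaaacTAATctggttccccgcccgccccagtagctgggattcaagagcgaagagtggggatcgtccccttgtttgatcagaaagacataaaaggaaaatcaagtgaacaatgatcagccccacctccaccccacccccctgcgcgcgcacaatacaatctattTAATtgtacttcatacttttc
Ece1: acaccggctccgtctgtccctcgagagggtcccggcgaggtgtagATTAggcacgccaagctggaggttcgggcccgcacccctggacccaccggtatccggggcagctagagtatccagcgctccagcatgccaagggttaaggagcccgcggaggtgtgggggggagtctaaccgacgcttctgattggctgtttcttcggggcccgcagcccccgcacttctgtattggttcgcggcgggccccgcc
Ednrb: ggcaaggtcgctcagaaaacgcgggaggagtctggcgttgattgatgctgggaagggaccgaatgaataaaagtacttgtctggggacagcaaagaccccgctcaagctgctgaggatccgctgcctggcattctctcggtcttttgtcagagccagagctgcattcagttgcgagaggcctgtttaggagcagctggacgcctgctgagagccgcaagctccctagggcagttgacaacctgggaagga
The Edn1 window held 2 matches, the Ece1 window 1 and the Ednrb window 0. In the 250 bases before the RefSeq starts (GRCm38.p6), Edn1 held 1 match, Ednrb 1, and Ece1 1 at each of 2 starts and 0 at 2 others. Of the 22380 windows of the same length before protein-coding genes, 52.4% held at least 1 match, so that a match in such a window is common. The window of Ece1 was rich in G and C, at 66.8%, beside 48% for Edn1 and 56.8% for Ednrb.

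Both endothelin receptors had positive log2 fold changes with overlapping 95% intervals, and a difference between them was not tested. Ednra, the receptor of the arch and outflow tract crest, held 80.9, 93.2, 82.6 and 71.7 CPM in CTRL replicates 1 to 4 and 75.1, 83.6, 88.2 and 91.7 CPM in Isl1_hypo replicates 1 to 4. The groups overlapped over nearly their whole ranges, and the log2 fold change was 0.04 with a 95% interval from −0.20 to 0.29 (adjusted p = 0.906, edgeR). It was 0.22 with the globin covariate. It changed sign, to −0.0157, when CTRL replicate 4 was left out. Ednrb held 128, 115, 121 and 147 CPM in CTRL replicates 1 to 4 and 137, 177, 210.5 and 133 CPM in Isl1_hypo replicates 1 to 4. Isl1_hypo replicates 2 and 3 stood above every CTRL library, whereas replicates 1 and 4 lay within the CTRL range. The mean was 127 ± 13.9 CPM in CTRL and 164 ± 36.6 CPM in Isl1_hypo, a log2 fold change of 0.37 (SE 0.15, unadjusted p = 0.0335, adjusted p = 0.369, edgeR). Without Isl1_hypo replicate 3 it was 0.23, which is 1 of the 5 single-library omissions after which the unadjusted p was no longer under 0.05. With the globin covariate it was 0.066 (unadjusted p = 0.777, edgeR). Ednrb is also the only one of the 9 genes with more than 1 transcript in the table. Its 3 transcripts had mean counts of 4766, 4758 and 3802, and they share most of their reads.

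Epicardial markers were compared beside Ednrb. All 5 of them had positive log2 fold changes, with sums of 48.3 to 303 CPM in CTRL and 366 to 586 CPM in Isl1_hypo. The highest epicardial sums, 586 and 420.2 CPM, were those of Isl1_hypo replicates 3 and 2, the libraries with the highest Ednrb. Within Isl1_hypo the libraries stood in the same order for both values, and CTRL replicate 4 was the highest of CTRL in both. Upk3b made up the largest share of the epicardial sums, and it alone of the 5 markers had this order within Isl1_hypo. Of the 10 endothelial markers only Emcn had the same order there. CTRL replicate 1 had the lowest epicardial sum but more Ednrb than CTRL replicates 2 and 3, and Isl1_hypo replicate 4 had a higher sum but less Ednrb than CTRL replicate 4. None of the 5 epicardial markers was at 0 in any library, and the parts of epicardial and endothelial cells in the Ednrb values were not tested. Neural crest and glial genes gave little signal, as Foxd3 was at most 0.0375 CPM and Sox10 at most 0.300 CPM in any library. Ets1, at 51.9 to 79.7 CPM, made up most of the sum of that list, which was 59.9 to 65.5 CPM in CTRL and 57.2 to 86.9 CPM in Isl1_hypo.

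Among 13 other genes of endothelin synthesis, breakdown and coupling, 11 were tested and none passed the adjusted threshold in edgeR, while DESeq2 called Mme (adjusted p = 0.0335). Their median log2 fold change was 0.02, with 7 above 0 and 4 below. At an unadjusted p under 0.05, 1 of the 11 was lower (Furin) and 1 was higher (Mme), beside 6.17% and 5.69% of all genes. Furin, the protease of the first cleavage of the precursor, held 102.5, 69.3, 64.3 and 67.6 CPM in CTRL replicates 1 to 4 and 51.6, 55.4, 52.1 and 53.5 CPM in Isl1_hypo replicates 1 to 4. Every Isl1_hypo library lay below every CTRL library, and CTRL replicate 1 stood well above the other CTRL libraries. The log2 fold change of Furin was −0.51 (SE 0.15, unadjusted p = 0.00522, adjusted p = 0.216, edgeR), −0.34 without CTRL replicate 1 and −0.28 with the globin covariate. Mme encodes neprilysin, a membrane peptidase that degrades endothelin among other peptides. It held 19.8, 32.7, 25.2 and 23.1 CPM in CTRL replicates 1 to 4 and 33.0, 40.6, 46.0 and 37.1 CPM in Isl1_hypo replicates 1 to 4. Here every Isl1_hypo library lay above every CTRL library, as was the case for 4.06% of all genes. The log2 fold change of Mme was 0.64 (SE 0.17, unadjusted p = 0.00313, adjusted p = 0.189, edgeR), and it kept an unadjusted p under 0.05 in 8 of 8 fits with 1 library left out. The other endothelin ligands were scarce, with Edn3 at 0.720 to 3.26 CPM and Edn2 at no more than 0.664 CPM in any library.

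Of 9 crest and arch genes that act below endothelin signalling, 6 were tested and none passed the adjusted threshold in edgeR or DESeq2. Hand1, a bHLH factor of the arches and ventricles, held 80.7 to 123 CPM in CTRL and 18.5 to 82.0 CPM in Isl1_hypo, where replicate 3 was the lowest and replicate 1 the highest. Its log2 fold change was −1.04 (SE 0.33, unadjusted p = 0.00924, adjusted p = 0.276, edgeR). Mef2c, a MADS-box factor of heart muscle and crest, stood at 269.9 to 282 CPM in CTRL and at 207 to 244 CPM in Isl1_hypo, without overlap, at a log2 fold change of −0.23 (unadjusted p = 0.0302, adjusted p = 0.352, edgeR). Hand2 lay at 38.1 to 47.4 CPM in CTRL and 30.7 to 53.1 CPM in Isl1_hypo. The listed factors Dlx5, Dlx3 and Barx1 were at or below 3.01 CPM in every library, and Dlx6, Gsc and Gbx2 did not pass the filter. Hand1 and Mef2c are also myocardial genes, so these values do not separate crest from muscle.

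**Figure D2:**
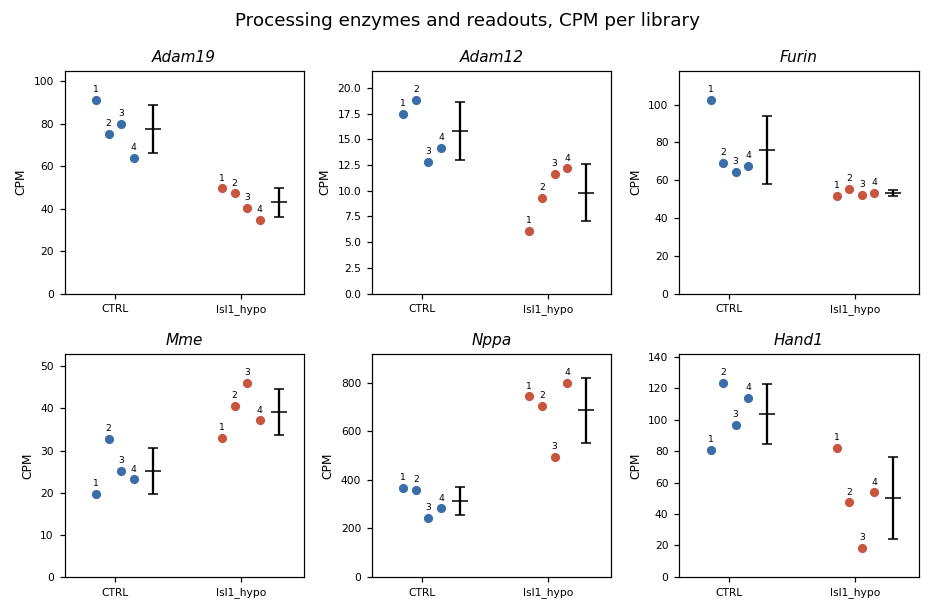
CPM in each library (vertical axis, starting at 0) of the proteases Adam19, Adam12, Furin and Mme and of Nppa and Hand1, with CTRL in blue, Isl1_hypo in red, replicate numbers above the points and the group mean with its SD as a black bar. The genes shown were all at an unadjusted p under 0.05 in edgeR. For all but Hand1 the groups are apart. They are lower in Isl1_hypo for Adam19, Adam12 and Furin, as for 4.44% of all genes. They are higher for Mme and Nppa, as for 4.06% of all genes.

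The ErbB ligands had lower means in Isl1_hypo, and neither passed the adjusted threshold. Nrg1, on the minus strand of chromosome 8 (32928500 to 33119581), held 19.5, 10.1, 16.8 and 10.5 CPM in CTRL replicates 1 to 4 and 11.5, 12.1, 8.41 and 9.69 CPM in Isl1_hypo replicates 1 to 4. CTRL replicates 1 and 3 were the highest, while CTRL replicates 2 and 4 lay among the Isl1_hypo libraries. The difference on the log2 scale was −0.45 (SE 0.24) with a 95% interval from −0.97 to 0.08 (unadjusted p = 0.0882, adjusted p = 0.493, edgeR), and it was −0.26 without CTRL replicate 1. It was −0.055 with the globin covariate (unadjusted p = 0.885, edgeR). These counts come from the exons of a single transcript of 2093 bases, the only one of this long gene in the table, so that reads of other Nrg1 isoforms were counted only where they share its exons.

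Hbegf, on the minus strand of chromosome 18 (36664583 to 36675459), held 41.9, 54.0, 54.3 and 42.7 CPM in CTRL replicates 1 to 4. Isl1_hypo replicates 1 to 4 held 37.0, 40.8, 36.8 and 38.8 CPM, a narrow range just under the lowest CTRL library. The mean was 48.2 ± 6.84 CPM in CTRL and 38.3 ± 1.84 CPM in Isl1_hypo, a log2 fold change of −0.33 (SE 0.13, unadjusted p = 0.0257, adjusted p = 0.339, edgeR). The unadjusted p stayed under 0.05 in 5 of 8 fits with 1 library left out, and the log2 difference was −0.19 with the globin covariate.

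Endothelial markers were compared beside these ligands, which the endocardium makes. Of 10 endocardial and endothelial markers 7 were fitted below 0 and 3 above, and none was at 0 in any library. Their sums were 946 to 1087 CPM in CTRL and 796 to 997 CPM in Isl1_hypo. Pecam1 and Cdh5, adhesion molecules of all endothelium, were lower without overlap between the groups, as were 4.44% of all genes, at log2 fold changes of −0.58 (adjusted p = 0.170, edgeR) and −0.54 (adjusted p = 0.241, edgeR). Cldn5, a tight junction gene of endothelium, was at 46.3% of the CTRL mean with overlapping groups, a log2 fold change of −1.12 (unadjusted p = 0.0206, adjusted p = 0.316, edgeR). Emcn, Nfatc1 and Npr3, which are high in endocardium, had log2 fold changes of 0.23, 0.36 and 0.28, none at an unadjusted p under 0.05. The part of endothelial content in the values of Nrg1, Hbegf, Edn1 and Ece1 was not tested.

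The 95% intervals of the log2 fold changes of the ErbB receptors overlapped, and differences between these genes were not tested. Erbb2, the shared partner receptor, on the plus strand of chromosome 11 (98273784 to 98299030), held 158, 166, 169.7 and 171 CPM in CTRL replicates 1 to 4 and 166, 167, 78.8 and 143 CPM in Isl1_hypo replicates 1 to 4. CTRL varied little, and in Isl1_hypo the low value of replicate 3 carried most of the difference. The log2 fold change was −0.26 (SE 0.19, unadjusted p = 0.205, adjusted p = 0.619, edgeR), −0.07 without that library and −0.11 with the globin covariate. Erbb4, the myocardial receptor, on the minus strand of chromosome 1 (68078760 to 69154633), held 51.3, 47.0, 55.3 and 68.8 CPM in CTRL replicates 1 to 4 and 48.0, 58.3, 47.0 and 55.6 CPM in Isl1_hypo replicates 1 to 4. The Isl1_hypo values lay inside the CTRL range except for replicate 3, which was level with the lowest CTRL library. The log2 fold change was −0.09 with a 95% interval from −0.40 to 0.22 (adjusted p = 0.834, edgeR), and it was 0.0279 without CTRL replicate 4 and −0.36 with the globin covariate.

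Erbb3 had the most negative log2 fold change of the 9 genes. It lies on the minus strand of chromosome 10 (128004579 to 128026708) and held 36.0, 19.9, 29.5 and 31.7 CPM in CTRL replicates 1 to 4. Isl1_hypo replicates 1 to 4 held 24.3, 20, 7.24 and 13.5 CPM. Isl1_hypo replicates 3 and 4 lay below every CTRL library, replicate 2 was level with CTRL replicate 2, and replicate 1 lay between CTRL replicates 2 and 3. The mean was 29.3 ± 6.82 CPM in CTRL and 16.2 ± 7.46 CPM in Isl1_hypo, or 55.5% of the CTRL level, with a log2 fold change of −0.85 (SE 0.32, unadjusted p = 0.0202, adjusted p = 0.316, edgeR). With 1 library left out it ranged from −1.11, without Isl1_hypo replicate 1, to −0.61, without Isl1_hypo replicate 3. The unadjusted p stayed under 0.05 in 6 of these 8 fits. With the globin covariate the log2 fold change of Erbb3 was −0.74 (unadjusted p = 0.142, edgeR). Cushion mesenchyme markers, which mark cells known to use Erbb3, were fitted below 0 for 5 of 6 genes. Their sums overlapped, at 888 to 1537 CPM in CTRL and 659 to 1652 CPM in Isl1_hypo, and none was at 0 in any library. The overlap rested on Isl1_hypo replicate 1, which held 1008 CPM of Col1a1, and the other 3 Isl1_hypo sums, 659 to 793 CPM, lay below every CTRL sum. Neuronal markers were fitted below 0 for 3 of the 4 tested, with sums of 59.9 to 83.2 CPM in CTRL and 38.6 to 56.6 CPM in Isl1_hypo that did not overlap. As for Erbb3, CTRL replicate 1 had the highest neuronal sum and Isl1_hypo replicate 3 the lowest, and Dcx and Elavl3 were at 0 in 1 CTRL library each. The epithelial genes Cdh1 and Cldn6 were highest in Isl1_hypo replicate 1, which also held the most Erbb3 among the Isl1_hypo libraries. The parts of cushion, neuronal and epithelial content in the Erbb3 values were not tested.

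**Figure D3:**
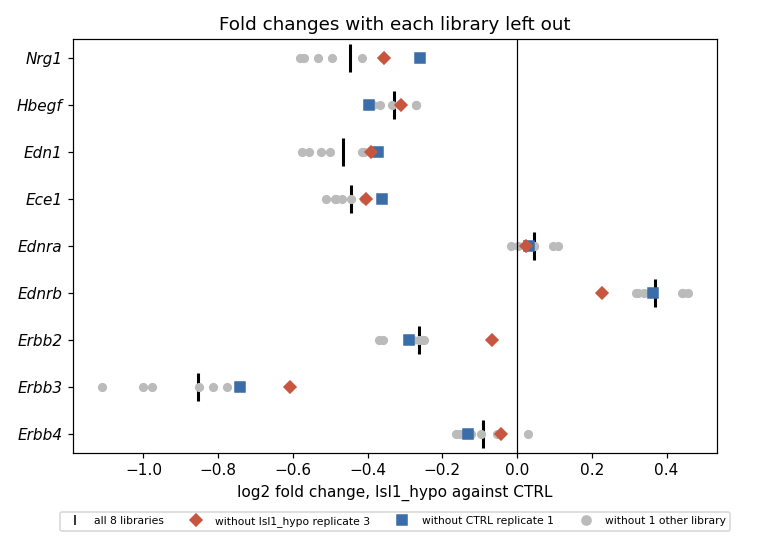
Log2 fold change of each gene, Isl1_hypo against CTRL (horizontal axis), from all 8 libraries (black bar) and with 1 library left out (points), where the diamond leaves out Isl1_hypo replicate 3 and the square leaves out CTRL replicate 1. Erbb2 moves from −0.26 to −0.07 and Ednrb from 0.37 to 0.23 without Isl1_hypo replicate 3, while Ece1 stays between −0.51 and −0.36.

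The sheddases and adaptors of the ErbB pathway included 1 gene that fell, beside 16 that did not pass the adjusted threshold, which 0.269% of all genes passed. Of 18 listed genes 17 were in the table and all 17 were tested, and 11 had a negative and 6 a positive log2 fold change with a median of −0.09. Adam19, a metalloprotease that cuts neuregulin from its membrane precursor and is needed for the endocardial cushions, was the one that passed the adjusted threshold. It held 91.2, 75.3, 80.0 and 63.9 CPM in CTRL replicates 1 to 4 and 49.5, 47.1, 40.3 and 34.6 CPM in Isl1_hypo replicates 1 to 4, with every Isl1_hypo library below every CTRL library, as for 4.44% of all genes. Adam19 fell from 77.6 ± 11.3 CPM to 42.9 ± 6.75 CPM (SD, n = 4). On the log2 scale the difference was −0.86, with an SE of 0.15 and an adjusted p of 0.0427 in edgeR. The size held with each library left out, at −0.94 to −0.77, but the adjusted p was then between 0.0388 and 0.137 and under 0.05 in 1 of 8 fits, the one without CTRL replicate 4. With the globin covariate it was −0.57 and was no longer called (unadjusted p = 0.0237, edgeR). Adam12, a related protease that sheds Hbegf, held 17.5, 18.8, 12.8 and 14.1 CPM in CTRL replicates 1 to 4 and 6.08, 9.33, 11.6 and 12.2 CPM in Isl1_hypo replicates 1 to 4. These groups did not overlap either, and the log2 fold change was −0.69 (SE 0.23, unadjusted p = 0.0118, adjusted p = 0.291, edgeR). The general sheddases Adam10 and Adam17 had log2 fold changes of 0.18 and −0.08, and the adaptors Grb2 and Shc1 of 0.15 and 0.00, with overlapping groups for all 4 genes.

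Of 10 listed genes for other ErbB ligands and the EGF receptor 7 were tested, none passed the adjusted threshold in edgeR or DESeq2, and 6 of the 7 were fitted above 0 with a median of 0.29. Egf was at an unadjusted p of 0.0469 (adjusted p = 0.414, edgeR) but reached only 0.0641 to 0.546 CPM in CTRL and 0.225 to 1.56 CPM in Isl1_hypo. Nrg4, at 8.80 to 13.4 CPM over all libraries, and Tgfa, at 2.78 to 15.1 CPM, were the most abundant ligands of this list. Per kilobase of transcript Nrg4 stood at 5.08 ± 0.406 CPM in CTRL and 5.80 ± 0.798 CPM in Isl1_hypo, which overlapped the range of Nrg1 in both groups. Nrg3 was at 0 in every library.

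A list of genes that act in trabeculation, made in endocardium, cardiac jelly or muscle, was tested in full, with 8 of 8 genes and a median log2 fold change of −0.05. Nppa, the natriuretic peptide gene of trabecular myocardium, held 366, 359, 244 and 282 CPM in CTRL replicates 1 to 4 and 745, 705, 496 and 799 CPM in Isl1_hypo replicates 1 to 4. Every Isl1_hypo library was above every CTRL library, and Nppa rose to 219% of the CTRL mean. Its log2 fold change of 1.13 had an SE of 0.17 and an adjusted p of 0.0303 in edgeR. With 1 library left out it was 1.03 to 1.26, and the adjusted p was under 0.05 in 1 of 8 fits, the one without Isl1_hypo replicate 3. With the globin covariate it was 1.51 (adjusted p = 0.519, edgeR). Vcan, the versican of the cardiac jelly, stood at 1167 to 1561 CPM in CTRL and 731 to 1260 CPM in Isl1_hypo (log2 fold change −0.40, unadjusted p = 0.0287, adjusted p = 0.348, edgeR), and the difference was −0.20 with the globin covariate. Bmp10, Notch1, Efnb2, Ephb4, Has2 and Hey2 had log2 fold changes from −0.29 for Efnb2 to 0.38 for Bmp10, none at an unadjusted p under 0.05.

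**Figure D4:**
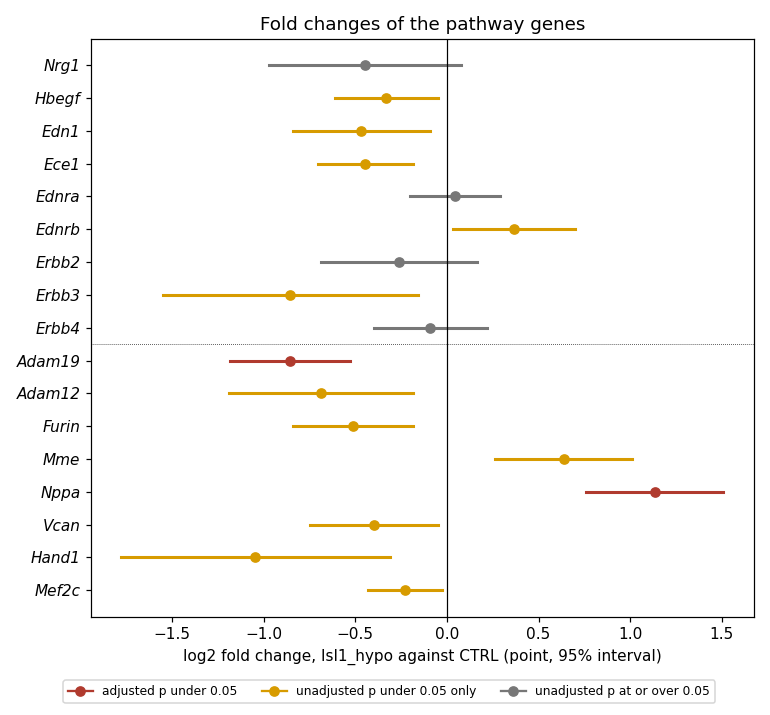
Log2 fold change of Isl1_hypo against CTRL (horizontal axis) with its 95% interval for the 9 genes, above the dotted line, and for genes of the pathway lists, below it. Adam19, at −0.86, and Nppa, at 1.13, are the genes shown in red with an adjusted p under 0.05, and the intervals of Nrg1, Ednra, Erbb2 and Erbb4 include 0.

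Levels between the genes were compared as CPM per kilobase of transcript. In CTRL the order was Ece1 at 70.6 ± 9.38, Erbb2 at 33.4 ± 1.18, Ednrb at 30.5 ± 3.33, Ednra at 22.6 ± 2.42, Hbegf at 20.4 ± 2.89, Edn1 at 15.8 ± 2.93, Erbb3 at 7.33 ± 1.71, Nrg1 at 6.79 ± 2.23 and Erbb4 at 4.63 ± 0.785 CPM per kilobase (SD, n = 4). Ece1 stood apart from Erbb2, Ednrb from Ednra, and Edn1 from Erbb3, whereas the libraries of the other neighbours in this order overlapped. In Isl1_hypo Ece1 stayed first at 51.9 ± 4.82 and Ednrb came next at 39.3 ± 8.76, above Erbb2 at 27.9 ± 8.33 CPM per kilobase. Ednra, Hbegf and Edn1 followed in the same order as in CTRL, at 23.3 ± 1.98, 16.2 ± 0.778 and 11.4 ± 1.97 CPM per kilobase. Erbb3 was last at 4.07 ± 1.87 CPM per kilobase, after Nrg1 at 4.98 ± 0.810 and Erbb4 at 4.35 ± 0.464 CPM per kilobase. The libraries of these last 3 genes overlapped, and so did those of Ednrb with Ece1 and with Erbb2, so that the changed places of Ednrb and Erbb3 are within the spread between embryos.

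The genes whose log2 CPM over the 8 libraries was most like that of a given gene were sought among 10735 others with a mean of at least 5 CPM, as a description of shape that includes the difference between the groups. For Ece1 they were Eml1 (Pearson r = 0.985) and Ifrd1 (r = 0.973), with log2 fold changes of −0.39 and −0.73. For Edn1 they were Baz2a (r = 0.961) and Alpk2 (r = 0.953), and for Nrg1 they were Vopp1 (r = 0.965) and Golga2 (r = 0.957). For Erbb3 they were Uchl1 (r = 0.987) and Mmp2 (r = 0.982), and for Erbb2 they were Sept9 (r = 0.998) and Sun2 (r = 0.995), a pair that shares its low point in Isl1_hypo replicate 3 with Erbb2. Hbegf was most like Dpp3 (r = 0.950) and Elmod3 (r = 0.937), and Ednrb most like Fbxo36 (r = 0.970) and Bche (r = 0.962). Ednra was most like Pum3 (r = 0.926) and Ldah (r = 0.925), and Erbb4 most like Zfp850 (r = 0.906) and Dnaaf5 (r = 0.903). None of these 18 genes reached an adjusted p under 0.05 in edgeR, and all values share the same 8 libraries and their depth.

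**Figure D5:**
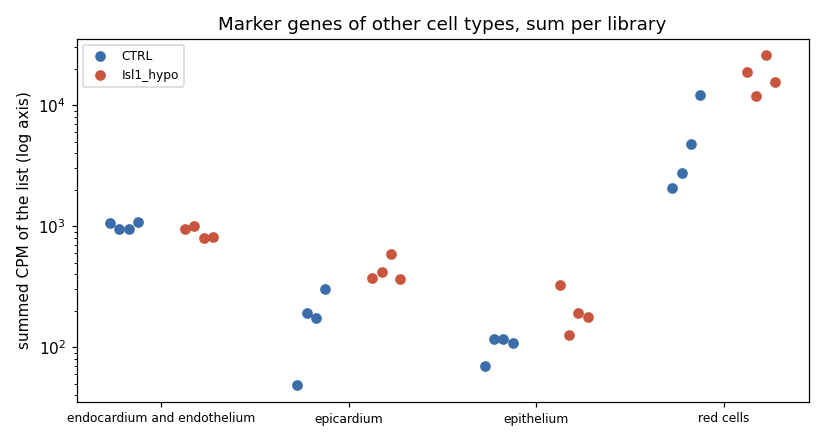
Summed CPM of 4 marker lists in each library (vertical log axis), with CTRL in blue and Isl1_hypo in red and points in replicate order from left to right. Endothelial sums overlap between the groups, and epicardial and epithelial sums are higher in every Isl1_hypo library. Krt8 and Krt18 make up most of the epithelial sums, while Cdh1 is at 0 in Isl1_hypo replicates 2 and 3. Red cell sums touch only between CTRL replicate 4, at 12030 CPM, and Isl1_hypo replicate 2, at 12010 CPM.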

How the data were processed

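Polyadenylated RNA of single-embryo OFT/RV samples was sequenced for 4 CTRL and 4 Isl1_hypo embryos. The authors mapped reads to mm9 with STAR and counted them over the exons of each RefSeq transcript with HOMER, on both strands, and the deposited values used here are these raw counts. Reads of an antisense partner are therefore included. The deposited table also gives transcript length, RPKM values in 8 columns, and the DESeq2 comparison of the authors (mean, log2 fold change, SE, statistic and p-values). The RPKM values and the comparison were not used here.

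Of 31507 transcripts, the one with the highest mean count was kept for each of 20701 symbols. After filterByExpr and TMM scaling, Isl1_hypo was compared with CTRL by quasi-likelihood tests (edgeR 4.0.16, R 4.3.3) without covariates. The Benjamini-Hochberg adjustment covered 13769 genes, and the SE was the size of the log2 fold change divided by the root of the F statistic. The common biological coefficient of variation was 26.4%. Log2 CPM used a prior count of 2. P-values measure the spread between single embryos, and with 4 per group small differences are not resolved. The method was tested on simulated data.

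The 9 genes and all gene lists were chosen with earlier results of these data known. Named from each of the 5 pathway lists were up to 4 genes at an unadjusted p under 0.05, marker genes were named where they stand beside a result, and Adam10, Adam17, Grb2, Shc1, Hand2, Edn2, Edn3, Nrg3, Nrg4, Tgfa and the remaining trabecular genes were named after their values were seen. A macrophage list was also summed, at 7.07 to 14.6 CPM in CTRL and at 1.68 to 12.8 CPM in Isl1_hypo. Alternatives were RLE factors, DESeq2 1.42.0, limma-voom with sample weights (limma 3.58.1), no filter, at least 10 counts in every library, the longest transcript, a replicate block, a globin covariate, and each library left out. Leaving out Isl1_hypo replicates 1 and 3 together was added after seeing the data. The replicate numbers did not pair the samples. Sequences and coordinates are from mm9 with the GENCODE annotation.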

Additional observations from a re-analysis of the deposited data

Results flagged for a closer look

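Among 38 groups of 4 libraries (9 genes, Isl1 and 9 genes of the pathway lists, each in CTRL and in Isl1_hypo), 2 held a library whose distance from the nearest other exceeded the limit of Dixon's test, where chance alone gives about 1.9. Furin in CTRL replicate 1 stood at 6.68 log2 CPM, with the other CTRL libraries between 6.01 and 6.12. Mef2c in Isl1_hypo replicate 1 stood at 7.69 log2 CPM, with the others between 7.91 and 7.93. The low values of Erbb2 and Erbb3 in Isl1_hypo replicate 3 did not exceed this limit.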

How the results depend on the processing

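The fitted direction was the same as in the report under all 17 alternatives for Nrg1, Erbb2, Erbb3, Hbegf, Edn1, Ece1 and Ednrb. Ednra reversed to −0.0157 without CTRL replicate 4, in a range of −0.0157 to 0.11 with 1 library left out. Erbb4 reversed to 0.0279 without CTRL replicate 4, in a range of −0.16 to 0.0279, and to 0.0335 without Isl1_hypo replicates 1 and 3 together. Of the 9 genes, 1 was called at an adjusted p under 0.05 by DESeq2 (Ece1) and none by edgeR or limma-voom, while DESeq2 called 3 genes of the pathway lists (Adam19, Nppa and Mme) and 330 genes in all, limma-voom 134 and edgeR 37. With the globin covariate 0 of the 9 genes were at an unadjusted p under 0.05, their median log2 fold change was −0.17, and 0 genes of the pathway lists and 0 genes in all were called. Isl1 was at −2.30 with that covariate (adjusted p = 0.519, edgeR). Globin level and group largely move together, and their parts cannot be told apart. With 1 library left out, the number of the 9 genes at an unadjusted p under 0.05 ranged from 2 to 6. The share of all genes at that limit was counted only for the edgeR fit of all 8 libraries without covariates. The number without overlap ranged from 2 to 4, while 5.71% to 7.54% of all genes were lower without overlap and 5.32% to 6.66% higher. The number of pathway list genes called (2 in the report, Adam19 and Nppa) ranged from 0 to 1. The number called over all genes (37 in the report) ranged from 4 to 48. Without Isl1_hypo replicates 1 and 3 together these counts were 2 at an unadjusted p under 0.05, 2 without overlap and 1 called. The cause of these shifts was not tested.

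The replicate numbers share no origin in the labels, and the deviations of same-numbered libraries correlated at −0.02 to 0.02. A fit with the replicate block called 0 of the 9 genes, 0 genes of the pathway lists and 0 genes in all, with 4 of the 9 at an unadjusted p under 0.05. The log2 fold change of Adam19 was −0.86 there (adjusted p = 0.0750, edgeR).

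The common coefficient of variation of 26.4% between embryos and 4 embryos per group limit what can be resolved, as in the 95% interval of Nrg1. Egf, Ereg, Btc and Epgn rest on few counts. Hypomorph libraries were shallower on the whole, and their depth was not tested as a cause.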
